A study of Homo sapiens with 12 samples.

Results

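Imprinted genes, which are expressed mainly or only from the copy of one parent, were placed relative to the lamina-associated domains (LADs) of H9 human embryonic stem cells. LADs are the stretches of DNA that contact the nuclear lamina, the protein layer under the nuclear envelope. The genes were 35 imprinted genes chosen by name, 31 of them protein-coding and 4 long noncoding, out of 59098 RefSeq genes on the autosomes and X (19974 protein-coding). All 35 were matched by symbol to RefSeq positions of GRCh38.p14, the primary assembly of hg38, and they fall into 17 loci, of which 8 hold 2 to 7 of them. Because neighbours share a LAD or a gap between LADs, genes of a locus are not independent of each other.

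The study used H9, an established human embryonic stem cell line, as naive cells kept in RSeT medium and as primed cells kept in mTeSR medium, with no treatment in either. In the pA-DamID assay an antibody to lamin B1 (LMNB1) holds a protein A-Dam fusion at the lamina, where Dam methylates adenine in GATC sites, and Dam-only libraries are the control. The labels list 3 LMNB1 and 3 Dam-only libraries for naive cells, and as many of each for primed cells, but not whether these came from separate cultures. The files give 1 list of intervals per state with no score and no reads, 9178 naive LADs (47.5% of the analysed span) and 5671 primed LADs (43.5%), all in multiples of 10 kb. The labels name final LAD lists, while those analysed carry the name simple, and whether both hold the same intervals is unknown. With 1 list per state nothing could be set against replicate error. All differences between states are therefore values of these lists without a test, and the sequencing depth behind them is unknown. The cell state itself could not be checked, since no expression was measured.

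Imprinting is set in the germ line by DNA methylation of control regions, which then survives the wave of demethylation in the early embryo. Zinc finger proteins such as ZFP57 bind methylated TGCCGC there and recruit TRIM28 to keep the mark. Human naive cells have low DNA methylation and are known to be prone to loss of imprints, whereas the lamina is known as a compartment of mostly silent chromatin.

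The promoters below are examples of each placement, while the calls further on rest on gene bodies. The NAP1L5 promoter lay in a naive LAD only, the printed PLAGL1 promoter in a primed LAD only, and the DIRAS3 promoter in LADs of both states. The SNRPN and MEG3 promoters, chosen for contrast, lay in neither. Each runs from 250 bases before to 50 bases after an annotated start, 5′ to 3′ on the gene's strand, from RefSeq (GRCh38.p14). They lie at chr4:88697780-88698079 (minus strand), chr6:144008210-144008509 (minus), chr1:68050578-68050877 (minus), chr15:24954737-24955036 (plus) and chr14:100825882-100826181 (plus). Capitals mark GATC, the site that Dam methylates, and TGCCGC on either strand (GCGGCA on the strand shown).
NAP1L5: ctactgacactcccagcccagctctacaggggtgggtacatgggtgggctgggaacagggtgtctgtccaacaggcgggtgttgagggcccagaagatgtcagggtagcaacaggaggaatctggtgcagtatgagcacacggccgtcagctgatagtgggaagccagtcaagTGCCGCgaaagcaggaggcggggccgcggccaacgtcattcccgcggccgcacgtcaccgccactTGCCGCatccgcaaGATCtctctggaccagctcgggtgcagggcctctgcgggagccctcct
PLAGL1: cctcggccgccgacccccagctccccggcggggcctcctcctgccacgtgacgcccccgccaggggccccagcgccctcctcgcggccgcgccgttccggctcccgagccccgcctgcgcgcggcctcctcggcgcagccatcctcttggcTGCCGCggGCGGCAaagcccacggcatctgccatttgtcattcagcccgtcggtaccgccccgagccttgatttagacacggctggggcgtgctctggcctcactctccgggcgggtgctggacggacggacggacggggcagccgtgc
DIRAS3: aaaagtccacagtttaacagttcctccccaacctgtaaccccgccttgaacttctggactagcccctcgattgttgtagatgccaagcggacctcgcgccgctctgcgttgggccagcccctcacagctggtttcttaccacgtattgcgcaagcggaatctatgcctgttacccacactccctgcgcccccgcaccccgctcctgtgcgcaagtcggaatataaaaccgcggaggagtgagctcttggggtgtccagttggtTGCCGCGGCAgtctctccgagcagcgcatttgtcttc
SNRPN: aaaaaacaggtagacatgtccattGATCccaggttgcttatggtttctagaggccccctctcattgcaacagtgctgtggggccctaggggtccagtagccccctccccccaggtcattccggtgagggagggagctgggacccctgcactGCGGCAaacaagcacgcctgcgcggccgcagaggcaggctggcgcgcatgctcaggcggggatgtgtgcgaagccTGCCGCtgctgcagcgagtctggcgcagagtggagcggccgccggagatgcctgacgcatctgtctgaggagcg
MEG3: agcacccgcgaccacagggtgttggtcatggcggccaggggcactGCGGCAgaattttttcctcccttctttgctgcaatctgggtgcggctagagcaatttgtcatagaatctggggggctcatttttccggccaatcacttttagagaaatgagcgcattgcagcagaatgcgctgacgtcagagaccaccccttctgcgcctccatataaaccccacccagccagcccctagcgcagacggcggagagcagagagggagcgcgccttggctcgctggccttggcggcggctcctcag
The NAP1L5 promoter held 1 GATC and 2 TGCCGC, and the PLAGL1 promoter 0 GATC, 2 TGCCGC and 39 CG dinucleotides. In the DIRAS3 promoter the 2 matches to TGCCGC, 1 on each strand, overlap in TGCCGCGGCA. The printed SNRPN promoter held 1 GATC and 2 TGCCGC, and the MEG3 promoter 0 and 1. Each printed promoter thus holds TGCCGC, but this is not typical of the entries. The other SNRPN entries held 1, 0 and 0, and of the PLAGL1 entries only the printed one held any. The promoters of H19 and UBE3A, also outside LADs in both states, held 0. Promoter entries were on hand for 22 of the 35 genes, 51 entries in all because some genes have several starts. Of these, 23 held TGCCGC (45.1%), against 16.7% of 35116 promoters of the same length, and 17 of the 51 held GATC, where 41.7% of all promoters did. The entries held a median of 19 CG dinucleotides, against 14 over all promoters, and starts of 1 gene overlap in part. A match to these letters is a description of the sequence and not evidence of binding.

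Most imprinted genes, like most protein-coding genes, lay outside LADs in both states. A gene counted as inside a LAD where intervals covered 50% or more of its body. Of the 35 genes, 4 were inside a LAD in naive cells (11.4%) and 4 in primed cells (11.4%), against 18.9% and 17.3% of all protein-coding genes (28.4% and 25.2% of all genes). With each locus counted once, if any of its genes was inside a LAD, the count was 3 of 17 loci in naive and 3 of 17 in primed. The lower share per gene therefore depended on how the clusters were counted. No share by locus was computed for protein-coding genes. The genes SGCE, PEG10 and DIRAS3 were in LADs of both states (8.57%, against 15.4% of protein-coding genes). NAP1L5 was in naive LADs only (2.86%, against 3.44%) and PLAGL1 in primed LADs only (2.86%, against 1.89%). A share of 1 in 35 cannot be told from these backgrounds, and each of these single calls ended under another treatment of small LADs or gaps, given with the gene. The other 30 genes (85.7%, against 79.3% of protein-coding genes under the same rule) had 0% of their body in LADs of either state. So 5 of the 35 touched a LAD, while 25.6% of protein-coding genes did so in at least 1 state. None of these shares was tested against its background, and clustered genes are not independent.

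SGCE and PEG10 lay deep inside a LAD in both states. They are neighbours on chromosome 7 that share a promoter region and are expressed from the paternal copy. SGCE (94584980 to 94656133) encodes epsilon-sarcoglycan, a membrane protein mutated in myoclonus dystonia, and PEG10 (94656325 to 94669695) is a gene derived from a retrotransposon and needed for the placenta in the mouse. Both were covered at 100% in naive and at 100% in primed. The naive LAD ran over 1060 kb (93840001 to 94900000), with its nearer edge 230 kb from PEG10. In naive 1 uncovered 10 kb window separated it from the next LAD of 1220 kb. The primed LAD took in both as 1 interval of 3320 kb (92810001 to 96130000), with its nearer edge 1460 kb from PEG10. With 500 kb on each side of the genes, naive LADs took 99.1% of the bases and primed LADs 100%, and all 3 other protein-coding genes of that span (COL1A2, CASD1 and PPP1R9A) were in LADs of both.

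DIRAS3, a Ras-family GTPase known as a growth suppressor and expressed from the paternal copy (chromosome 1, 68045962 to 68050627), was also covered at 100% in both. It lay in a naive LAD of 2690 kb (67530001 to 70220000) and in a primed LAD of 2530 kb (67690001 to 70220000). The right edge was at the same base in both lists, and the left edge stood 516 kb from the gene in naive and 356 kb in primed. Between the left edges lay 3 smaller primed LADs of 20, 80 and 10 kb. GADD45A, a stress response gene, had 100% of its body in naive LADs and 0% in primed ones. It fell in a primed gap of 1 window, between a LAD ending at 67680000 and the one starting at 67690001, so its call rests on that window. With 500 kb on each side of DIRAS3, naive LADs took 100% of the bases and primed LADs 96.6%. The other coding neighbours of DIRAS3, which are GNG12, WLS, RPE65 and DEPDC1, were at 100% in both.

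NAP1L5 was inside a LAD in naive and in a gap between LADs in primed. It is a single-exon gene of the nucleosome assembly protein family (chromosome 4, 88695913 to 88697829) that lies in an intron of HERC3 and is expressed from the paternal copy. It was covered at 100% in naive, by a LAD of 170 kb (88570001 to 88740000), with the edges 126 kb and 42.2 kb from the gene. In primed it was covered at 0% and lay in a gap of 70 kb (88660001 to 88730000), 32.17 kb from the nearest LAD, a single 10 kb window. The gene occupies 1 window, so the call rests on that window. With LADs less than 100 kb apart joined, NAP1L5 was at 100% in both states. Its surroundings moved the same way. With 500 kb on each side naive LADs took 76.6% of the bases and primed LADs 41.7%, where 418 kb was common to both lists, 350 kb was in naive LADs only and 0 kb in primed LADs only. Coverage of the host gene HERC3 was 80.4% in naive cells and 21.7% in primed cells, HERC6 at 67.1% and 0%, HERC5 at 61.2% and 0%, and FAM13A at 97.0% and 77.6%. HERC3, HERC5 and HERC6 encode ubiquitin ligases of the HERC family. PYURF and PIGY, a pair that share 1 locus beside HERC3, were at 0% in both.

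PLAGL1 showed the opposite order. This zinc finger transcription factor restrains cell growth, is expressed from the paternal copy and is tied to transient neonatal diabetes (chromosome 6, 143940300 to 144064599, 124 kb). LADs took up 11.7% of its length in naive and 60.02% in primed, so naive minus primed was -48.3 points. Of the 13 windows that it touches, naive LADs held 2 and primed LADs 8, and both naive windows were among the primed ones. The call in primed only rested on small LADs and on the 50% rule: without LADs under 50 kb or under 100 kb coverage was 0% in naive and 35.9% in primed. The call also ended when 90% of the body, overlap of any length or the gene start was used. The outermost start of PLAGL1 was in LADs of both states. The promoter printed above was in primed LADs only, as were 3 of the other 4 annotated ones. HYMAI, an imprinted transcript inside PLAGL1 (144004916 to 144008259), had 0% in naive LADs, against 100% in primed LADs. With 500 kb on each side, LADs held 48.4% of the bases in naive and 89.3% in primed. There 544 kb was common to both lists, 460 kb was in primed LADs only and 0 kb in naive LADs only. All 10 other coding genes of the span were in primed LADs and 4 of them in naive LADs. Examples are PEX3, a peroxisome assembly gene (1.55% in naive and 100% in primed), PHACTR2 (13.6% and 89.4%), the ribosome assembly factor LTV1 (0% and 67.5%) and the splicing factor gene SF3B5 (0% and 100%). The utrophin gene UTRN was at 89.4% and 100%. The naive LADs of this span were mostly single windows, 13 LADs in all, against 10 in primed, of which those at both ends ran on for 4020 and 4060 kb.

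**Figure D1:**
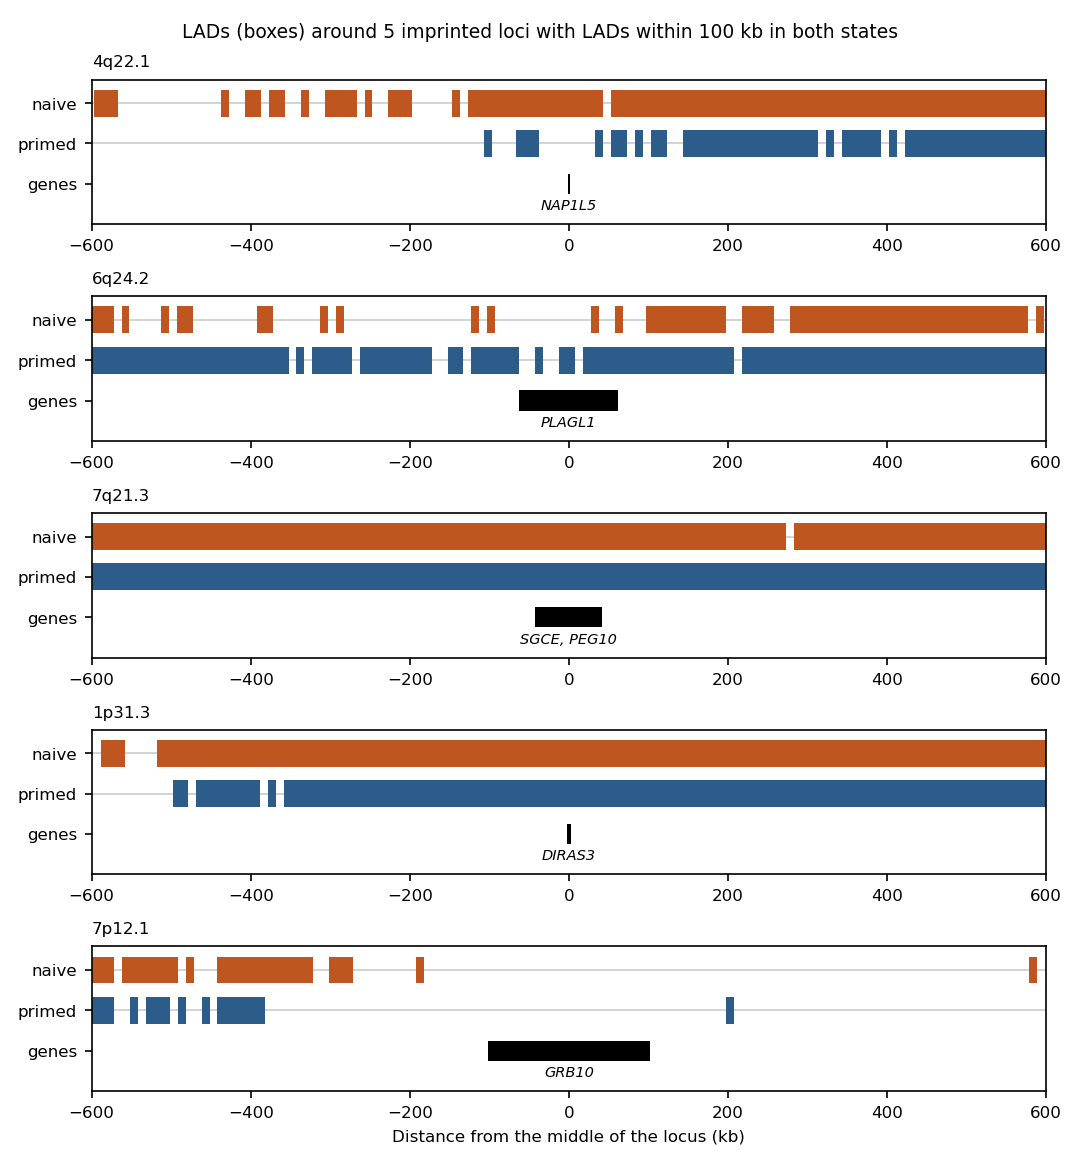
LADs as boxes (naive upper row, primed lower row) and imprinted genes as black boxes, against distance in kb from the middle of each of 5 loci. NAP1L5 falls in a naive LAD and a primed gap, PLAGL1 in a mostly covered primed and mostly uncovered naive stretch, SGCE with PEG10 and DIRAS3 within LADs of both, and GRB10 in a gap of both.

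GRB10, an adaptor that restrains insulin and growth factor receptor signalling and whose expressed copy depends on the isoform, was the nearest to a LAD among the genes outside LADs in both states. It spans 203 kb on chromosome 7 (50590068 to 50793453) and was at 0% in both, 80.1 kb from a LAD in naive and 96.6 kb in primed. It lay in a gap of 0.76 Mb in naive and 0.58 Mb in primed. On its left IKZF1, a lymphoid transcription factor gene, had 80.3% of its body in naive LADs and 6.44% in primed ones. DDC, which encodes aromatic L-amino acid decarboxylase, was at 9.35% and 0%, and COBL on the right at 3.33% and 0%. With 500 kb on each side naive LADs took 23.3% of the bases and primed LADs 13.29%.

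The other 29 genes outside LADs lay 88.5 kb to 2916 kb from the nearest LAD in naive, and 350.6 kb to 4405 kb in primed. Over all 35 genes the median distance came to 669 kb (naive) and 1435 kb (primed), against 609 kb and 869 kb over all protein-coding genes. With each locus counted once, by its closest gene, the medians were 361 kb and 941 kb. How the imprinted genes stood against protein-coding genes thus depended on whether genes or loci were counted. The nearest LAD was nearly always small: in naive it was 1 or 2 windows long (10 or 20 kb) for 29 of 30 genes outside LADs (96.7%, against 86.8% of protein-coding genes outside naive LADs). In primed it was so for 30 of 31 (96.8%, against 89.0%), and MEST was the exception in both. Counting only LADs of 100 kb or longer, the medians were 2276 kb in naive and 3000 kb in primed, against 2146 kb and 2521 kb for protein-coding genes.

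**Figure D2:**
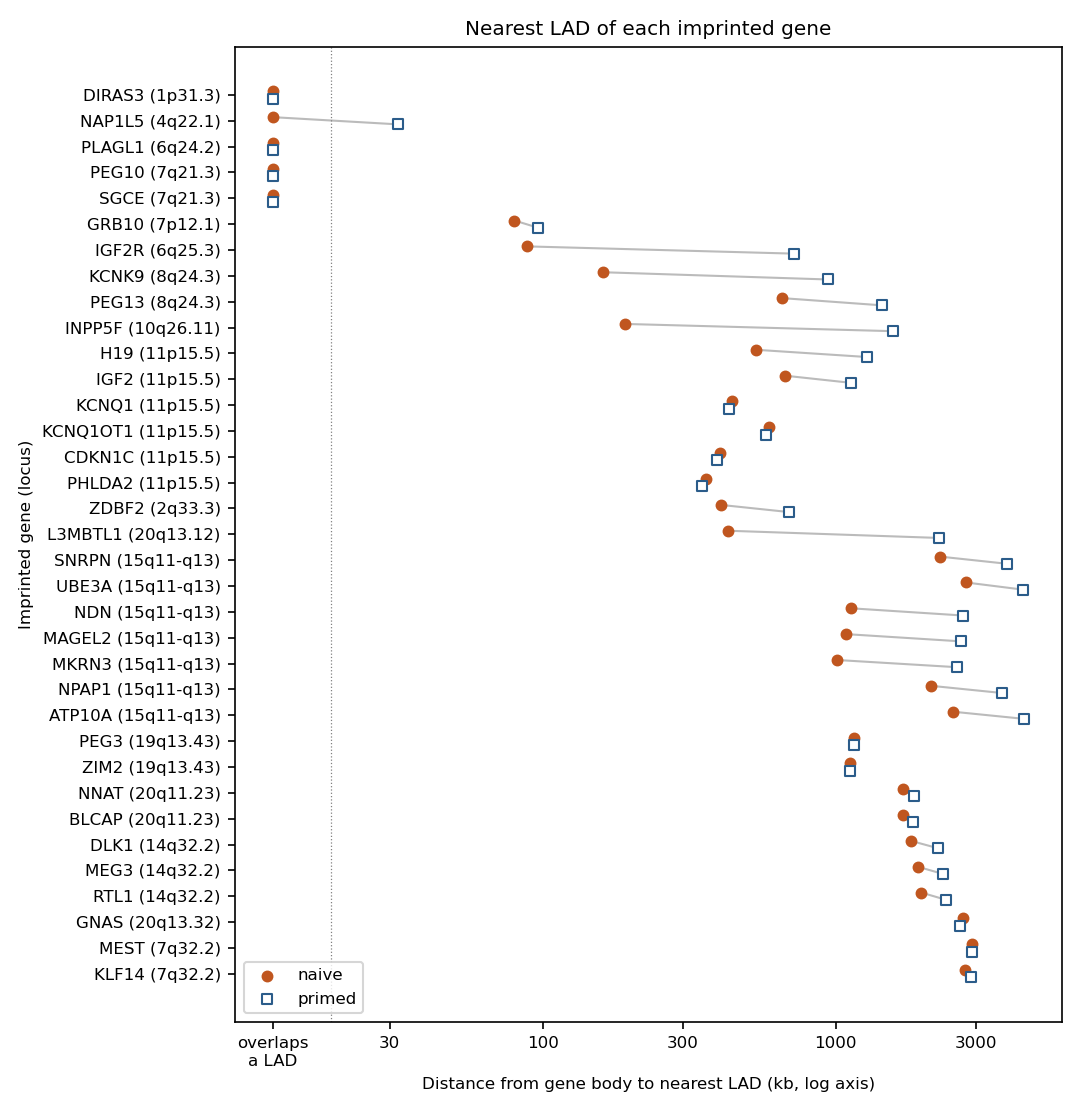
Distance from each of the 35 gene bodies to the nearest LAD in kb on a log axis, naive as filled circles and primed as open squares, with genes that overlap a LAD set at the left. All genes but 5 lie outside LADs in both states, and most of these have the naive point to the left of the primed point.

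The cluster with the most of the 35 genes, on chromosome 15 (the Prader-Willi and Angelman region, 15q11-q13), stood in 1 of the longer LAD-free stretches of each list. MKRN3, MAGEL2, NDN, NPAP1 and SNRPN are expressed from the paternal copy, and UBE3A, a ubiquitin ligase, from the maternal copy in neurons. ATP10A encodes a phospholipid flippase. All 7 were at 0% in both states. The free stretch ran over 5.81 Mb in naive (22560001 to 28370000, rank 41 of 9155 by length) and 9.30 Mb in primed (20970001 to 30270000, rank 21 of 5648). MKRN3, at one end of the cluster, stood 1006 kb from the nearest LAD in naive cells and 2596 kb in primed cells. For ATP10A, at the other end, these distances were 2505 kb and 4405 kb. These LADs were single windows. The nearest LAD of 100 kb or longer was 9215 kb from ATP10A in naive and 9425 kb in primed. In a span with 4 Mb on each side there were 3 naive and 4 primed LADs, together 0.03 Mb and 0.04 Mb, with 0 kb in common. The region is flanked by long repeats, and an unmappable window cannot be told apart from one that does not contact the lamina. Mappability was not measured here.

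The 6 genes of 11p15.5, the Beckwith-Wiedemann region, were likewise at 0% in both states. H19 and IGF2 lie together: H19 is a maternally expressed noncoding RNA and IGF2 a paternally expressed fetal growth factor. KCNQ1, a potassium channel gene of 404 kb, its paternally expressed antisense RNA KCNQ1OT1, the cell cycle inhibitor CDKN1C and the placental growth regulator PHLDA2 follow. H19 was 535 kb from a LAD in naive and 1279 kb in primed, and IGF2 669 kb and 1130 kb. That naive LAD was a single window (1450001 to 1460000), and no primed LAD lay between the first base of chromosome 11 and 3280000. For the other 4 genes both lists had their nearest LAD at the same place, ending at 3300000, and the primed one started 10 kb nearer. PHLDA2 was 361 kb away in naive and 351 kb in primed. Beyond it the lists met larger LADs: from the first base of the chromosome to 4 Mb beyond PHLDA2 naive LADs took 34.3% of the bases and primed LADs 35.2%, with 2259 kb in common.

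DLK1, MEG3 and RTL1 of 14q32 were at 0% in both states, but a group of LADs stood on their left that was nearly all in naive only. DLK1 is a paternally expressed ligand related to Notch ligands, MEG3 a maternally expressed noncoding RNA and RTL1 a paternally expressed gene derived from a retrotransposon. DLK1 was 1807 kb from the nearest LAD in naive and 2227 kb in primed. The LAD-free stretch around the 3 genes was 6.64 Mb in naive and 7.63 Mb in primed. Within 4 Mb on each side there were 33 naive LADs of 1.21 Mb together and 1 primed LAD of 0.02 Mb. Of these bases, 1190 kb was in naive LADs only and 0 kb in primed LADs only. The primed LAD (98480001 to 98500000) lay inside a longer naive one (98400001 to 98550000). The nearest LAD of 100 kb or longer was 2177 kb from DLK1 in naive and 11940 kb in primed. With 500 kb on each side of these genes LADs took 0% of the bases in both states, so the 55 microRNA genes there necessarily lay outside LADs.

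MEST, a paternally expressed hydrolase-fold gene, and KLF14, a maternally expressed transcription factor gene, lay farther from LADs than most. MEST was 2916 kb away in both states, from LADs that ended at the same base (127570000), and KLF14 was 2756 kb away in naive and 2886 kb in primed. The LAD-free stretch was 5.92 Mb in naive and 6.05 Mb in primed.

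**Figure D3:**
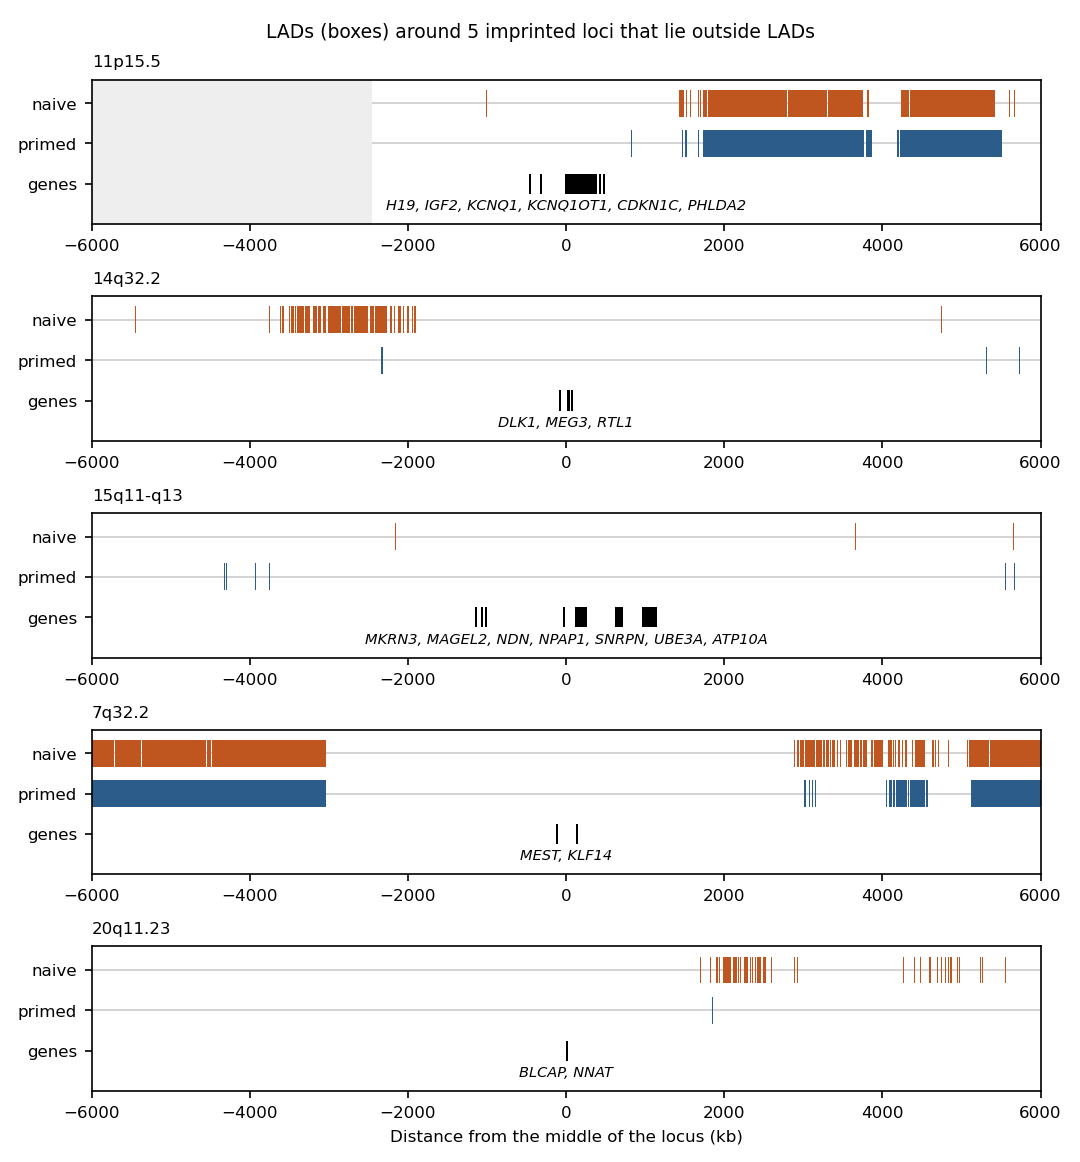
LADs as boxes (naive upper row, primed lower row) and imprinted genes in black, against distance in kb from the middle of each of 5 loci, over 6 Mb to each side (grey: beyond the start of the chromosome). No box falls on a gene. Near 14q32.2 and 20q11.23 most LADs are naive only.

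On chromosome 20, GNAS, which encodes the stimulatory G protein alpha subunit and has transcripts from either copy, was 2720 kb from a LAD in naive and 2650 kb in primed. It was 1 of 5 genes that were nearer to a primed LAD. NNAT, a paternally expressed membrane protein gene inside an intron of BLCAP, was 1696 kb away in naive and 1846 kb in primed, and BLCAP 1692 kb and 1842 kb. L3MBTL1, a paternally expressed chromatin reader, was 428 kb away in naive and 2259 kb in primed. That naive LAD was a single window. Within 4 Mb on each side of L3MBTL1 there were 36 naive LADs (580 kb together) and 1 primed LAD (0.01 Mb), and around NNAT and BLCAP 25 (460 kb) and 1 (0.01 Mb), with 0 kb in common at each. These spans overlap in part, so the same LADs are counted in both.

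IGF2R, INPP5F, ZDBF2 and the pair KCNK9 and PEG13 stood 88.5 to 655 kb from a LAD in naive and farther in primed. IGF2R, the receptor that clears IGF2 (imprinted in the mouse and variably so in humans), was 88.5 kb away in naive and 719 kb in primed. INPP5F, a phosphoinositide phosphatase gene with a paternally expressed short transcript, was 191 kb and 1566 kb away. KCNK9, a maternally expressed potassium channel gene, was 161 kb and 941 kb away, and the paternally expressed noncoding RNA PEG13 near it 655 kb and 1435 kb. ZDBF2, a paternally expressed zinc finger gene, was 405 kb and 695 kb away. Each of these naive LADs was 10 or 20 kb long. With 500 kb on each side of the genes naive LADs held 2.63% of the bases at IGF2R, 3.63% at INPP5F, 9.95% at KCNK9 with PEG13 and 1.92% at ZDBF2, and primed LADs held 0% at each. PEG3 and ZIM2, paternally expressed zinc finger genes with a common first exon on chromosome 19, had the same nearest window in both states, 1150 kb and 1115 kb away. Chromosome 19 had no LAD of 100 kb or longer in either list.

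Of the 30 genes outside LADs in both states, 22 were nearer to a LAD in naive (73.3%), 5 nearer in primed (16.7%) and 3 at the same distance. Over protein-coding genes outside LADs in both states these shares were 60.0%, 33.7% and 6.31%. By locus, taking the closest gene, 10 of 13 were nearer in naive, 2 in primed (11p15.5 and 20q13.32) and 1 was the same. With LADs of 100 kb or longer 10 loci were nearer in naive and 2 in primed, and 19q13.43 could not be compared, since chromosome 19 had none. By gene these longer LADs were nearer in naive for 20 (66.7%, against 51.6% of protein-coding genes) and in primed for 7 (23.3%, against 27.6%). Genes of chromosome 19 stayed in these totals as nearer in neither state, which lowers the shares. The naive list holds more LADs, and 3676 of them (40.1%) were single windows, against 2599 in primed (45.8%). In naive 17 of 35 genes lay 1 Mb or more from a LAD (48.6%, against 42.2% of protein-coding genes), and in primed 22 of 35 (62.9%, against 47.2%).

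The LAD share around the 17 loci was spread from 0% to 100%. With 500 kb on each side it was 0% in both states at 6 loci (19q13.43, 7q32.2, 14q32.2, 15q11-q13, 20q13.32 and 20q11.23) and under 5% in both at 11. It was at least 40% in both at 4 loci, those of DIRAS3, SGCE with PEG10, NAP1L5 and PLAGL1. It was higher in naive at 8 loci, higher in primed at 3 (6q24.2, 11p15.5 and 7q21.3) and equal at 6. Only at NAP1L5 and PLAGL1 did the states differ by over 10 points, by 34.9 and -40.9 points. Over all loci together, naive LADs took 17.8% of the bases and primed LADs 16.6%. The whole analysed span, which is not centred on genes, had 47.5% and 43.55%. Of the 170 other protein-coding genes in these spans, 20 were in LADs in each state. Among all protein-coding genes the shares were 18.9% (naive) and 17.3% (primed). The equal totals do not stand for the same genes. Around PLAGL1 the count was 4 in naive and 10 in primed. It was lower in primed around NAP1L5 (5 and 1), GRB10 (3 and 2) and DIRAS3 (5 and 4).

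**Figure D4:**
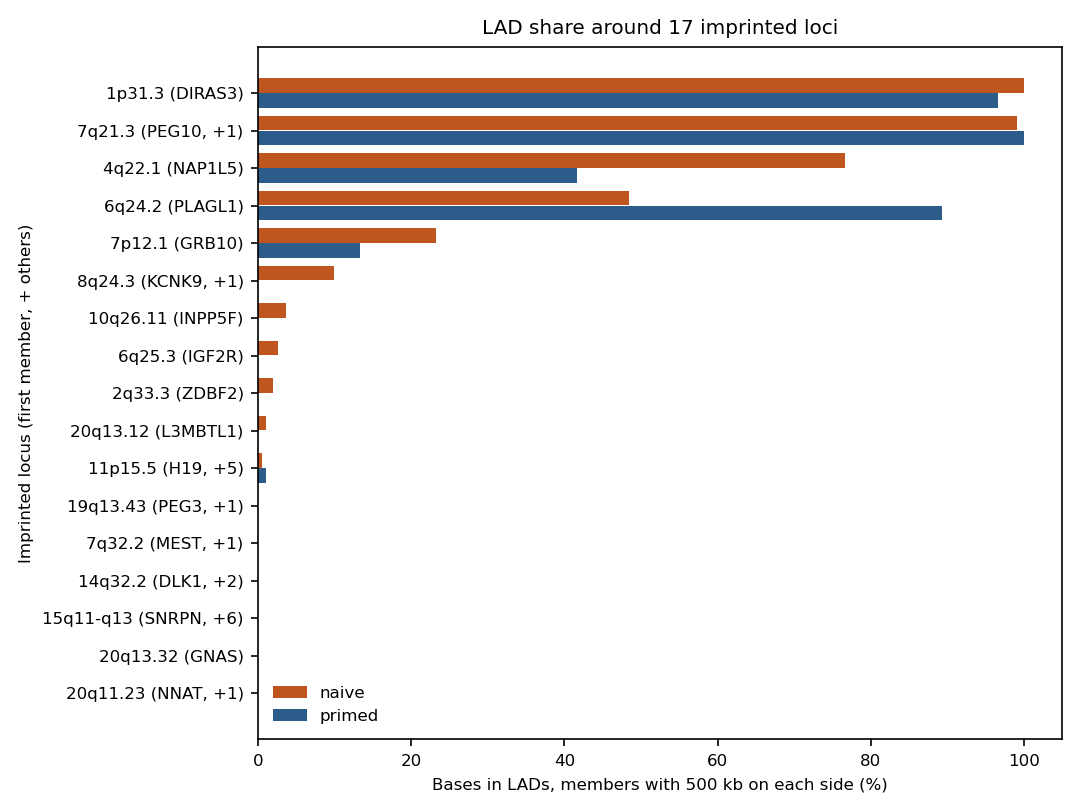
Share of bases in LADs in percent, naive above primed, for each of 17 loci with 500 kb on each side of its imprinted genes. At the top 4 loci at least 40% is covered in both states, GRB10 and KCNK9 follow, the other 11 are under 5% in both, and the order of the states is opposite at NAP1L5 and PLAGL1.

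How far the imprinted genes stood from the mean per protein-coding gene depended on whether imprinted genes or loci were counted. Per gene, the mean share of the body in LADs was 11.8% in naive and 10.3% in primed, against 18.7% and 17.2% over all protein-coding genes. From 500 to 1000 kb off the gene it was 17.9% and 14.1%, against 26.3% and 22.7%, and from 1000 to 2000 kb 26.4% and 23.3%, against 29.9% and 26.12%. With each locus weighted equally, the mean share of the body was 18.3% in naive and 15.3% in primed, near the means per protein-coding gene. From 500 to 1000 kb it was 29.2% and 22.98%, against 26.3% and 22.7% per protein-coding gene. From 1000 to 2000 kb the mean over loci was 37.8% in naive and 32.9% in primed, above the per-gene 29.9% and 26.12%. Protein-coding genes were not weighted by region, so the means over loci have no like background here. The clusters of 6 and 7 genes at 11p15.5 and 15q11-q13, all at 0%, make up 13 of the 35 genes but 2 of the 17 loci. The chromosomes on which the genes lie gave a similar background, with a mean share of coding genes in LADs of 17.6% in naive and 15.7% in primed over the 35 genes.

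**Figure D5:**
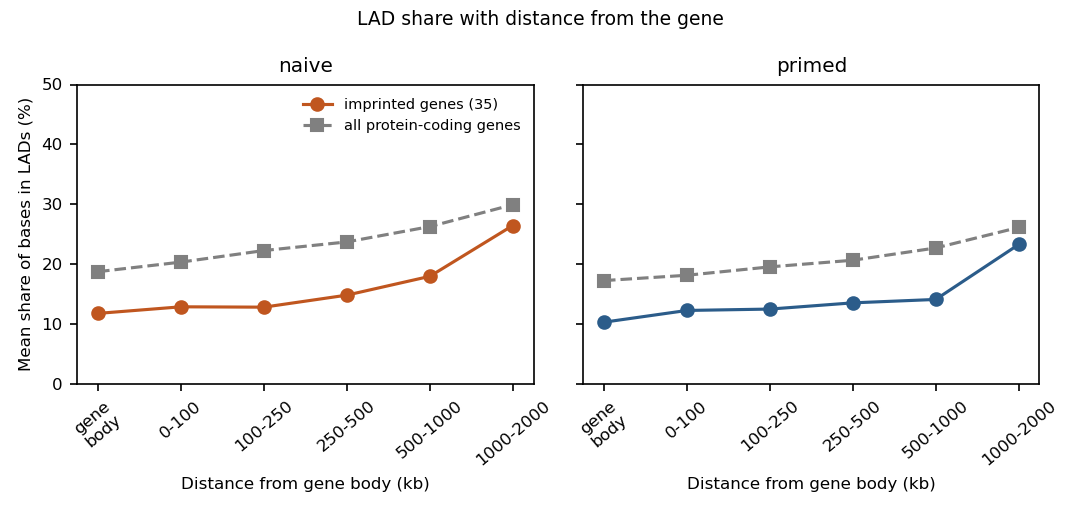
Mean share of bases in LADs in percent, in the gene body and in 5 ranges of distance from it, for 35 imprinted genes (circles) and all protein-coding genes (grey squares), naive left and primed right. The imprinted genes lie below in each range, and the gap is narrowest at 1000 to 2000 kb. With loci weighted equally (not drawn) the mean at 1000 to 2000 kb lies above that of protein-coding genes, which is a mean per gene and so not a like background.

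By the copy that is usually expressed, LADs of naive cells held 4 of 22 paternally expressed genes, those of primed cells also 4, and those of at least 1 state 5. That is 18.2% in each state, near the 18.9% and 17.3% of protein-coding genes. Of 9 maternally expressed genes, 0 were in LADs of either state. Paternally expressed genes stood a median of 837 kb from a LAD in naive cells and 1500.0 kb in primed cells, and maternally expressed genes 535 kb and 1279 kb. The 9 maternally expressed genes come from only 5 loci, 4 of the genes from 11p15.5, and the lists do not separate the parental copies of a locus, so a LAD on 1 copy cannot be told from a LAD on both.

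Of 50 further imprinted genes, 4 were inside a naive LAD and 6 inside a primed LAD, fewer per gene than the shares of protein-coding genes given above. In both states these were PPP1R9A, beside PEG10 (99.3% in naive and 100% in primed), ZFAT (97.2% and 84.6%), LRRTM1, a synaptic adhesion gene (100% and 100%), and TFPI2, a protease inhibitor gene at 7q21 (100% and 100%). In primed LADs only were HYMAI and RB1, the retinoblastoma gene (38.3% in naive and 85.3% in primed). A list of 19 other genes held factors that set or keep imprints and the methylcytosine oxidases TET1, TET2 and TET3. Of these 19, 1 was inside a naive LAD (5.26%, against 18.9% of protein-coding genes) and 2 inside a primed LAD (10.5%, against 17.3%). TET2, which oxidises methylcytosine, was covered at 96.9% and 100%, and KHDC3L, an oocyte gene needed to set maternal imprints, at 0% and 100%. The other 17, among them ZFP57, TRIM28, DNMT1 and DNMT3A, were under 50% in both.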

How the data were processed

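For each state the authors deposited intervals with chromosome, start and end and no other value, for 3 LMNB1 and 3 Dam-only libraries, per the labels. The labels speak of final lists, while the deposited ones are named simple. SICER, BWA, SAMtools 1.10 and the build hg38 come from the submitters' processing notes. Step order, thresholds and the merging of libraries were not given in the sources used here. Positions were taken as deposited by the authors and are printed 1-based. Gene bodies came from RefSeq (GRCh38.p14). Covered share, distance from gene body to nearest LAD, and LAD share of each locus (its genes with 500 kb on each side) were computed. Strand was on hand for 22 genes and unknown for 13. Genes, lists and loci were chosen with earlier results of these data known. The 4 Mb span, loci counted once for distance, and leaving out clusters were added after seeing the data. All 35 genes are given. Of the other lists, genes at least 50% covered are named. In a simulated comparison of 19974 genes, all 200 genes made to switch were recovered. Their windows were switched in full, so this checked only the overlap computation and not the calling of LADs. Tools were pandas 2.3.3, numpy 2.4.6, Python 3.11.15, matplotlib 3.10.9 and SciPy 1.17.1.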

Additional observations from a re-analysis of the deposited data

How the results depend on the processing

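No paired analysis was possible because each state has 1 list and no value per replicate, and no library could be left out for the same reason. SGCE, PEG10 and DIRAS3 stayed at 100% in both states under each of the 5 ways of joining or filtering the LADs. NAP1L5 kept its call under 4 of them. With LADs less than 100 kb apart joined it was at 100% in both, leaving 0 genes in naive LADs only. PLAGL1 rested on small LADs: 0 genes were in primed LADs only when LADs under 50 kb or under 100 kb were left out (0% in naive and 35.9% in primed at PLAGL1), when at least 90% of the body or overlap of any length was asked, or when the gene start was used. With LADs less than 50 kb apart joined it was at 27.8% and 100%. By gene start, 2 of the 22 genes with a known strand were in primed LADs. With each locus counted once, if any of its genes was inside a LAD, 3 loci counted in naive and 3 in primed. The median distance came to 1982 kb (naive) and 2916 kb (primed) without LADs under 50 kb, 2276 and 3000 kb without those under 100 kb, and 1807 and 2716 kb with joining and filtering. From the gene start (22 genes) it was 1108 and 2365 kb, with loci counted once 361 and 941 kb, without 11p15.5 1115 and 1846 kb, and without 15q11-q13 488 and 1122 kb. It was thus shorter in naive throughout, but its size depended on the genes counted. The LAD share around the loci was higher in primed for the gene spans alone (2.10% in naive and 3.25% in primed) and, at 500 kb, with only LADs of 50 kb or longer (15.01% and 15.22%). It was 13.7% and 13.5% with 250 kb on each side, 23.15% and 19.4% with 1 Mb, and 38.2% and 33.8% with 4 Mb (less at chromosome ends). It was 20.6% in naive with LADs less than 50 kb apart joined, 22.3% and 18.4% with 100 kb, and 14.5% and 13.5% without LADs under 100 kb.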
